A study of Mus musculus with 4 samples.

Results

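The 10 genes described here encode the matricellular proteins CCN1 and CCN2 and the transcriptional machinery that is best known for driving them, with 2 of its widely used reporter genes. They were chosen by name: Ccn1, Ccn2, Yap1, Wwtr1, Tead1, Tead2, Tead3, Tead4, Ankrd1 and Amotl2, all of which were measured, among 22180 genes with a single gene symbol in the table. Ccn2 and Yap1 had 2 rows each and the other 8 genes had 1, and where there were several the brightest row was used. RNA came from mouse fibroblasts of wild-type animals (WT) and of animals labelled Zip13KO, described in the series as null for Zip13, the zinc transporter encoded by Slc39a13. Each group had 2 biological replicates, each on its own Affymetrix Mouse Gene 2.0 ST array, giving 4 arrays. The labels give no treatment, strain, age, tissue of origin or passage, and do not say whether the replicates were separate animals or cultures. The p-values therefore rest only on how much these samples vary, a spread estimated largely over all genes together. Some of that spread may be technical. The study's stated interest is zinc balance and the structure of the Golgi and the perinuclear region.

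CCN1 and CCN2 are secreted proteins that sit in the extracellular matrix, bind integrins, proteoglycans and other receptors, and shape adhesion, migration and scarring. YAP, encoded by Yap1, and TAZ, encoded by Wwtr1, are coactivators without a DNA-binding domain of their own. They enter the nucleus when the Hippo kinases are inactive, as in spread cells under mechanical tension, and reach DNA through the TEAD proteins, which recognise the short motif GGAATG. YAP and TAZ are regulated largely through phosphorylation and location, which a measurement of RNA does not show. In fibroblasts the pathway is known for its link to the actin cytoskeleton and to matrix production.

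The bases just upstream of the transcription start are shown for 5 of the 6 members in which the TEAD motif lay there. The windows are the 250 bases before an annotated start, 5′ to 3′ on the gene's strand, from RefSeq on build GRCm38.p6, with matches to the motif in capitals (GGAATG on the gene's strand, CATTCC where it is on the other strand). For Wwtr1, which has 2 annotated starts, the more upstream window is given. Ccn1, Ankrd1, Amotl2 and Wwtr1 were lower on the Zip13KO arrays, and Yap1 was not past the threshold, as described below.
Ccn1, chr3:145649986-145650235, minus strand: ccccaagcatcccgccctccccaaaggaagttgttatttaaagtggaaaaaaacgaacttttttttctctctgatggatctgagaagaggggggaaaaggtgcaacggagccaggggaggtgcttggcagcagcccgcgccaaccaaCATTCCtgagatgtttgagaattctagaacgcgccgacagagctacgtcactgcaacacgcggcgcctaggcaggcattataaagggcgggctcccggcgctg
Ankrd1, chr19:36119845-36120094, minus strand: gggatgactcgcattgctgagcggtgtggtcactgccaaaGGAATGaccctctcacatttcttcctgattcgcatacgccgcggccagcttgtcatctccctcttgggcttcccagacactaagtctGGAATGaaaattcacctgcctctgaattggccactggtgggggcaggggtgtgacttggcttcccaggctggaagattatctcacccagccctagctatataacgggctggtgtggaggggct
Amotl2, chr9:102717554-102717803, plus strand: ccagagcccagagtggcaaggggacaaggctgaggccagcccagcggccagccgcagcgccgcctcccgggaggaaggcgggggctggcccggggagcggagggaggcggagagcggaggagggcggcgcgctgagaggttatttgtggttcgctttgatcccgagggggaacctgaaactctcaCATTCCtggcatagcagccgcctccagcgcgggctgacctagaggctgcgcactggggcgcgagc
Wwtr1, chr3:57575911-57576160, minus strand: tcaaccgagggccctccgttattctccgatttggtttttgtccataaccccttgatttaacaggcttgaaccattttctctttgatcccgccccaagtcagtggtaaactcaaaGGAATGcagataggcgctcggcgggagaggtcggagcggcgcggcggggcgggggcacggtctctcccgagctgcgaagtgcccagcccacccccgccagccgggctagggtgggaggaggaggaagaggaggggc
Yap1, chr9:8004597-8004846, minus strand: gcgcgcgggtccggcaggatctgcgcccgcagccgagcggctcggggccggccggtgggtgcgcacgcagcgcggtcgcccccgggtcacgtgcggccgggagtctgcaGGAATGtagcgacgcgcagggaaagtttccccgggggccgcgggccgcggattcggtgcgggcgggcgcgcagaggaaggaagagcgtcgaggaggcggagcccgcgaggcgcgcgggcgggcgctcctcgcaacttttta

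Of the 7 members with a promoter window in the RefSeq table, 6 held the TEAD motif in at least 1 window, and it lay in 8 of their 10 windows. Over all promoters, 12.6% of 32851 windows of the same length held it on either strand. Counted by gene, 14.4% of 27025 genes held it in at least 1 window. The match began 103 bases before the start of Ccn1, 65 bases before that of Amotl2 and 141 bases before that of Yap1. Ankrd1 had 2 matches, beginning 210 and 123 bases before the start. A single match began 136 bases before the more upstream start of Wwtr1, and the same bases lie 170 before its other start. Tead3 has 3 annotated starts: the most upstream window held 1 match, the middle window held 2, which began 123 and 114 bases before that start, and the remaining window held none. These letters were not in the window of Tead2. Ccn2, Tead1 and Tead4 had no entry in the table. The AP-1 motif TGANTCA and the CArG box bound by serum response factor were searched on both strands in the same windows and were found in 0 of 10 and 0 of 10, against 6.7% and 1.5% of all windows. A match is a string of letters and not a measured binding site, and members were named for their place in this pathway, so the share describes them and tests nothing. Among 12 other known YAP/TEAD target genes with a window, 3 held the motif, namely Axl, Crim1 and Ptpn14.

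**Figure D1:**
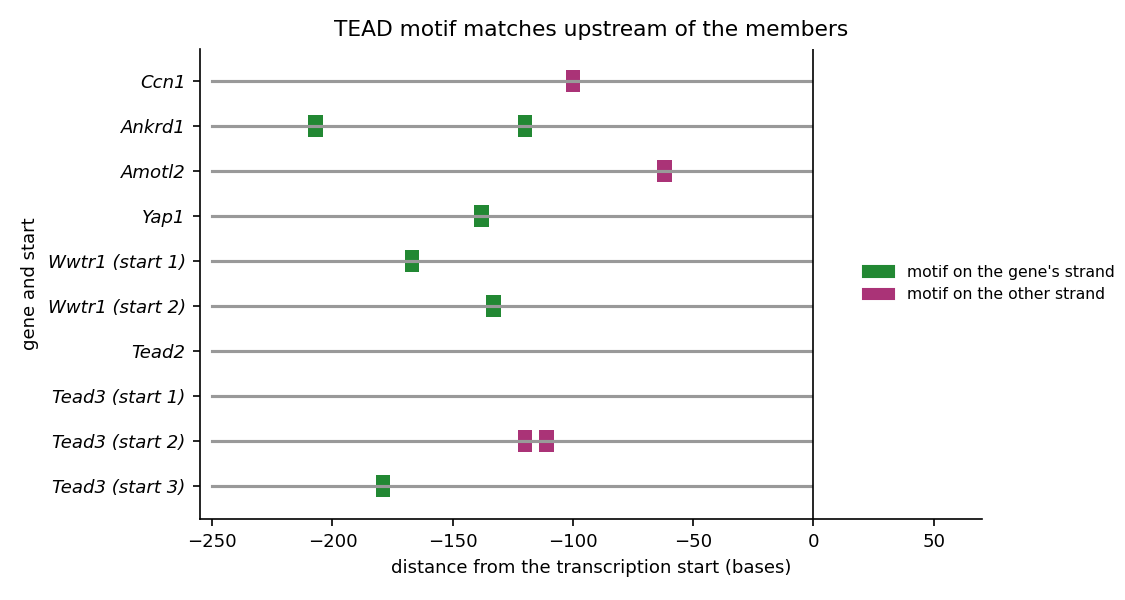
Position of the TEAD motif in the 250 bases before each annotated start of the 7 members that have a promoter window. The x axis is the distance from the transcription start in bases, each grey line is a window, and green and purple blocks are matches on the gene's strand and on the other strand; 8 of 10 windows hold at least 1 match.

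Before any test of the members, the gene named in the labels was read on each array. The log2 intensity of Slc39a13 was 8.94 and 8.85 on the WT arrays and 8.89 and 8.98 on the Zip13KO arrays, so the groups overlapped. The difference was 0.04 (95% interval -0.12 to 0.20, limma adjusted p = 0.820). It is not known which part of the gene was altered or where the probes lie, so this does not check the labels, and directions rest on the labels. The median intensity per array was 94.5 to 96.1, the arrays of a group correlated at 0.994 for both groups over all rows, and arrays of different groups at 0.983 to 0.985. Of the 10 fibroblast markers, 8 were above the median of all rows on every array, and lumican (Lum) and Fap were below it. Their summed intensity was 15491 to 16317 in WT and 12652 to 13184 in Zip13KO, but single markers went both ways. In limma at an adjusted p under 0.05, 4 fell, among them Pdgfrb (-0.92) and Col1a1 (-0.89), and Pdgfra rose by 1.04 log2 units. Over all genes tested, 10.1% fell and 7.00% rose. The part of the marker changes in the differences of the members was not tested.

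Most of the members that changed were lower in the Zip13KO fibroblasts. The 4 members often measured as readouts of the pathway, Ccn1, Ccn2, Ankrd1 and Amotl2, all fell. They do not stand for all of its targets: of 17 other known YAP/TEAD targets, 6 fell, 2 rose and 9 did not pass. The members were chosen with earlier results of these data known. Of the 10 members, 6 fell and 1 rose in limma at an adjusted p under 0.05, and 3 did not pass. Over all genes tested, 17.1% passed, with 10.1% lower and 7.00% higher. The median difference of the members was -0.45 log2 units, beside -0.0034 over all genes tested. The 2 arrays of one group lay apart from those of the other for 8 members that were lower and 1 that was higher in Zip13KO, where 27.3% and 24.1% of all genes did so, 51.5% in all. With 2 arrays a group, the smallest two-sided p of an exact permutation test is 0.333, and the calls rest on limma's model of the spread over all genes. RNA was measured in bulk, so fewer cells of a type and less RNA per cell cannot be told apart.

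**Figure D2:**
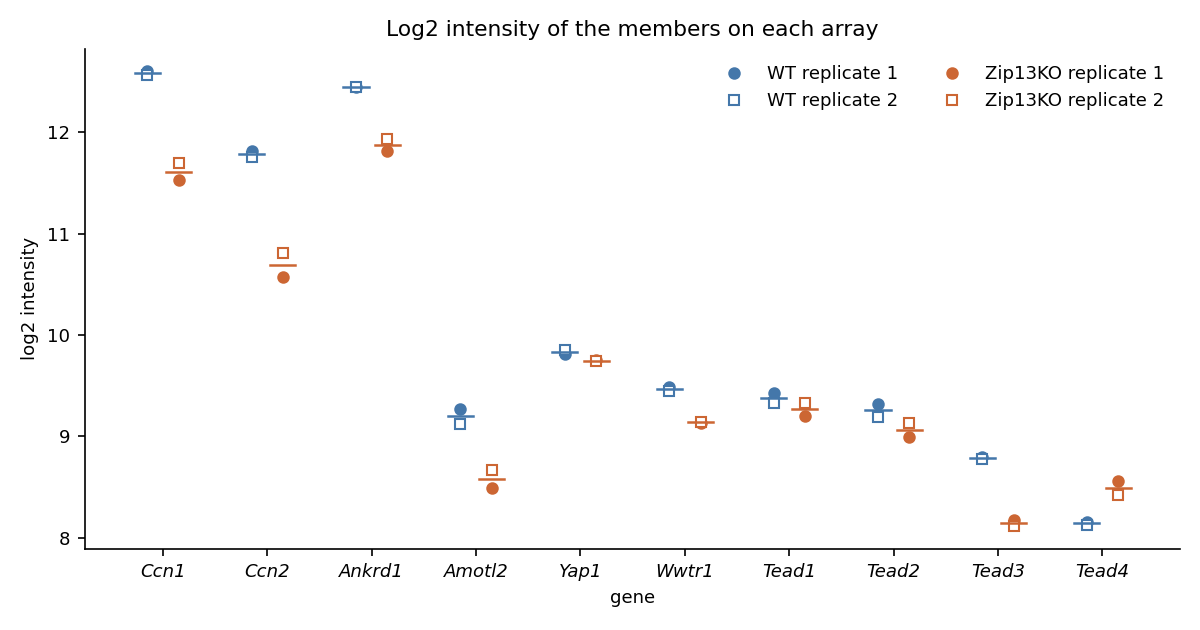
Log2 intensity (y axis) of each member (x axis) on the 4 arrays, with WT in blue, Zip13KO in orange, filled circles for replicate 1, open squares for replicate 2 and a line at the group mean. For Ccn1, Ccn2, Ankrd1, Amotl2, Wwtr1 and Tead3 both Zip13KO arrays lie below both WT arrays, and for Tead4 both lie above. Both also lie below for Yap1 and Tead2, which did not pass the threshold. Of all genes tested, 51.5% had groups that did not overlap. Intensities of different genes come from different probes and are not to be compared with each other.

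Ccn1 and Ccn2, the secreted products of the pathway, showed the largest differences among the members on the brightest row of each gene; as the mean of its rows Ccn2 was at -0.62, close to Tead3 and Amotl2. Ccn1, also known as Cyr61, had a log2 intensity of 12.60 and 12.57 on the WT arrays and 11.53 and 11.70 on the Zip13KO arrays. The groups did not overlap, and the Zip13KO arrays were further from each other than the WT arrays were. The group means were 12.59 ± 0.02 in WT and 11.61 ± 0.12 in Zip13KO (SD, n = 2 each). Ccn1 fell by 0.97 log2 units (SE 0.06, 95% interval -1.10 to -0.84), which left 51.0% of the WT intensity (limma adjusted p = 2.46e-09). On the linear scale the deposited intensities were 6219 and 6072 in WT and 2950 and 3327 in Zip13KO.

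Ccn2, also known as Ctgf and a classical product of cells that respond to TGF-beta or to stretch, had a log2 intensity of 11.81 and 11.76 in WT and 10.57 and 10.81 in Zip13KO. The groups again lay apart, and replicate 1 was the lower of the Zip13KO arrays for Ccn2 as for Ccn1. Ccn2 fell by 1.10 log2 units (SE 0.07, 95% interval -1.25 to -0.94), to 46.8% of WT (adjusted p = 3.36e-09). This value comes from the brighter of its rows, with a mean log2 intensity of 11.24 over the 4 arrays. The other row was dimmer, at a mean of 7.68, with 7.79 and 7.71 in WT against 7.65 and 7.55 in Zip13KO, a difference of -0.15 (adjusted p = 0.433 over all rows). Both rows were lower on both Zip13KO arrays, but the sizes disagree, and the mean of the rows gave -0.62 (adjusted p = 7.46e-06). Which transcripts or parts of the gene each row covers is not given in the sources used here. In WT the log2 ratio of Ccn2 to Ccn1 was -0.81 to -0.79, and in Zip13KO it was -0.95 to -0.89, a change of -0.12 (exact permutation p = 0.333, the smallest possible). The 95% intervals of the 2 genes' differences overlap.

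Ankrd1 and Amotl2, which are often measured as readouts of YAP and TAZ, fell by less than Ccn1 did. Ankrd1, also known as CARP, encodes an ankyrin repeat protein of muscle and stressed cells that acts in the sarcomere and in the nucleus. Its log2 intensity was 12.44 and 12.45 in WT and 11.81 and 11.93 in Zip13KO. The WT arrays nearly coincided, and both Zip13KO arrays lay below them. Ankrd1 fell by 0.57 log2 units (SE 0.06, 95% interval -0.70 to -0.45), to 67.2% of WT (adjusted p = 1.00e-06). Amotl2 encodes an angiomotin-like protein of cell junctions that binds YAP and holds it in the cytoplasm, so it is both a target and a brake of the pathway. It had a log2 intensity of 9.27 and 9.12 in WT and 8.49 and 8.67 in Zip13KO, with wider spread within each group than Ankrd1 and still no overlap. Amotl2 fell by 0.62 log2 units (SE 0.08, 95% interval -0.79 to -0.44), to 65.2% of WT (adjusted p = 2.65e-05). The intervals of Ankrd1 and Amotl2 lie above those of Ccn1 and Ccn2 without overlap when Ccn2 is read from its brighter row; the mean of the Ccn2 rows lies within the interval of both.

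The coactivators differed in their result: Wwtr1 fell and Yap1 was not past the threshold. Wwtr1, which encodes TAZ, had a log2 intensity of 9.49 and 9.45 in WT and 9.13 and 9.14 in Zip13KO. The arrays of each group were close together and the groups lay apart. Wwtr1 fell by 0.33 log2 units (SE 0.07, 95% interval -0.48 to -0.18), to 79.5% of WT (adjusted p = 0.00242). Yap1 had a log2 intensity of 9.81 and 9.85 in WT and 9.76 and 9.74 in Zip13KO. Both Zip13KO arrays were again lower, but by little: the difference was -0.09 (SE 0.07, 95% interval -0.23 to 0.06, adjusted p = 0.510). The interval allows a level from 0.23 log2 units below WT to 0.06 above. A second, dimmer row of Yap1 was at 6.22 and 6.32 in WT and 6.37 and 6.22 in Zip13KO, with overlapping groups and a difference of 0.03, and the mean of the rows gave -0.03 (adjusted p = 0.888). The log2 ratio of Wwtr1 to Yap1 was -0.41 to -0.32 in WT and -0.62 to -0.60 in Zip13KO, a change of -0.24. The ratios of the groups did not overlap. An exact permutation test of 2 arrays against 2 gives 0.333 at the least, which was the value here, so it says nothing on whether the coactivators differ in their change.

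The TEAD genes encode the DNA-binding partners of YAP and TAZ, and they did not move as a group. Tead3 had a log2 intensity of 8.80 and 8.78 in WT and 8.18 and 8.12 in Zip13KO, with tight replicates and no overlap. Tead3 fell by 0.64 log2 units (SE 0.07, 95% interval -0.80 to -0.48), to 64.1% of WT (adjusted p = 5.18e-06). Tead4 went the other way, from 8.15 and 8.13 in WT to 8.56 and 8.42 in Zip13KO. Both Zip13KO arrays were above both WT arrays, and replicate 1 was the higher. Tead4 rose by 0.35 log2 units (SE 0.08, 95% interval 0.18 to 0.51), to 127% of WT (adjusted p = 0.00366), and did not pass when all 41345 rows were fitted and adjusted together (adjusted p = 0.0611). The log2 ratio of Tead4 to Tead3 was -0.65 on both WT arrays and 0.30 and 0.38 on the Zip13KO arrays. That change of 0.99 had an exact permutation p of 0.333. Over the 4 ratios of members and relatives compared in this way, the Benjamini-Hochberg adjusted value was 0.333 for each. As 0.333 is the smallest p this test can give here, it cannot show whether the genes of a pair differ in their change. The pairs were not part of the planned comparisons. Tead3 and Tead4, like Ccn2 and its relative Ccn4, went opposite ways, so the change in their ratio only restates those differences.

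Tead1 and Tead2 did not pass the test. Tead1 had a log2 intensity of 9.43 and 9.33 in WT and 9.21 and 9.33 in Zip13KO. It was the only member whose groups overlapped, with a difference of -0.11 (95% interval -0.27 to 0.05, adjusted p = 0.407). Tead2 had 9.32 and 9.19 in WT and 9.00 and 9.13 in Zip13KO. Its groups lay apart by a narrow margin, and the difference was -0.19 (95% interval -0.35 to -0.03, unadjusted p = 0.0244, adjusted p = 0.114). It passed without Zip13KO replicate 2 (-0.26, adjusted p = 0.0380), the array nearer to WT. Among the 6 members that fell, replicate 1 was the lower Zip13KO array for 5, Tead3 being the exception.

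**Figure D3:**
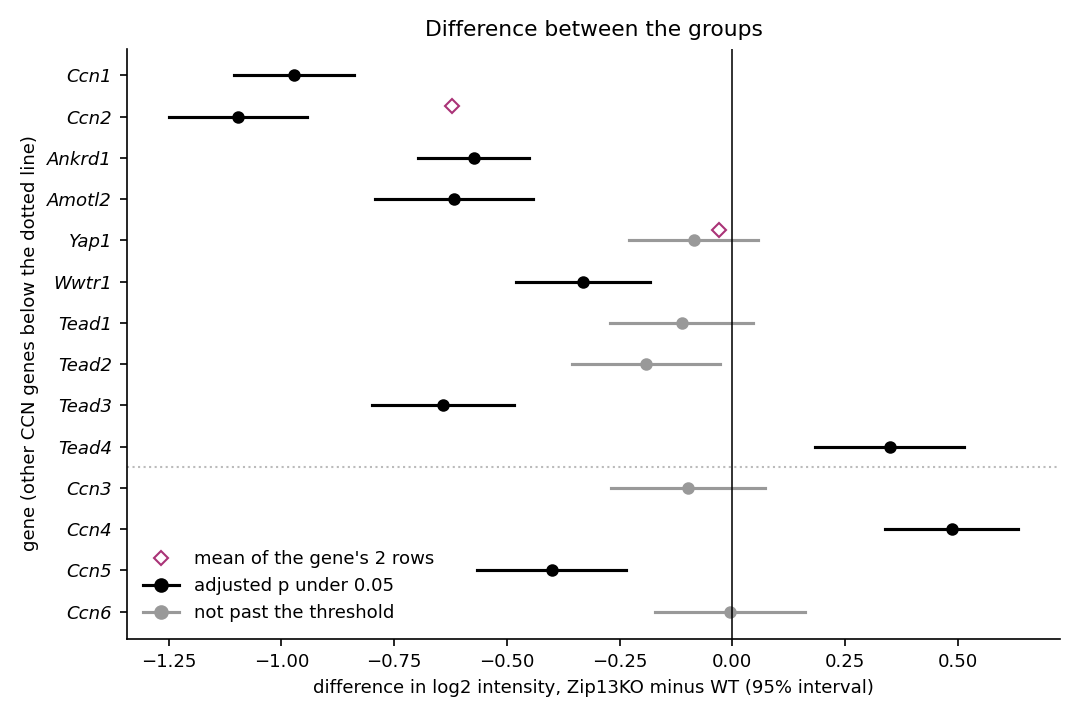
Difference in log2 intensity between Zip13KO and WT (x axis) with its 95% interval from limma for the 10 members and, below the dotted line, for the 4 other CCN genes (y axis). Black marks passed the threshold and grey marks did not; diamonds give the mean of the 2 rows of Ccn2 (-0.62) and of Yap1 (-0.03). Ccn1 and Ccn2 lie furthest to the left, while Tead4 and Ccn4 lie to the right of 0.

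The CCN family has 4 further members, and they did not follow Ccn1 and Ccn2 as a group. In limma 1 rose and 1 fell, where 7.00% and 10.1% of all genes did. The other 2 did not pass, and the median difference was -0.05. Ccn4, also known as Wisp1 and known as a Wnt-responsive gene, had a log2 intensity of 9.21 and 9.24 in WT and 9.73 and 9.69 in Zip13KO. Replicates were close and the groups lay apart. Ccn4 rose by 0.49 log2 units (SE 0.07, adjusted p = 5.43e-05), to 140% of WT. The log2 ratio of Ccn4 to Ccn2 changed by 1.58, from between -2.61 and -2.52 in WT to between -1.12 and -0.84 in Zip13KO (exact permutation p = 0.333). Ccn5, also known as Wisp2, lacks the C-terminal module of the other CCN proteins and is known to act against CCN2 in some settings. It had a log2 intensity of 7.59 and 7.62 in WT and 7.19 and 7.22 in Zip13KO and fell by 0.40 (SE 0.08, adjusted p = 0.00118). Ccn3, also known as Nov, was at -0.10 (95% interval -0.27 to 0.07, adjusted p = 0.530), and Ccn6 was at -0.01 (95% interval -0.17 to 0.16, adjusted p = 0.981). On every array Ccn6 was at 6.30 to 6.37, below the median of all rows, 6.58, and Ccn3 lay near that median, at 6.59 to 6.74.

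Other known targets of YAP and TEAD went in both directions, with more lower. The list is a set of genes widely used as conserved YAP/TEAD targets, less the members. Of its 17 measured genes, 6 fell and 2 rose, where 10.1% and 7.00% of all genes did, and 9 did not pass. The 2 that rose are a share close to that over all genes. The median difference was -0.15 beside -0.0034 over all genes. Foxf2, a forkhead transcription factor of mesenchymal cells, was at 8.71 and 8.48 in WT and 6.65 and 6.66 in Zip13KO. Foxf2 fell by 1.94 log2 units (SE 0.09, adjusted p = 1.60e-11), to 26.1% of WT. Its Zip13KO values lie near the median of all rows, 6.58, so the size of this fall is uncertain. F3, the tissue factor that starts clotting, fell by 1.21 (SE 0.07, adjusted p = 9.32e-10), from 9.68 and 9.64 in WT to 8.41 and 8.49 in Zip13KO. Crim1, a transmembrane protein that binds BMP ligands, was at 10.64 and 10.57 in WT and 9.35 and 9.58 in Zip13KO, and fell by 1.14 (SE 0.08, adjusted p = 4.52e-09). Ccdc80, a secreted matrix protein, fell by 0.95 (SE 0.08, adjusted p = 4.62e-08). For each of these 4 genes the groups lay apart. Axl, a receptor tyrosine kinase often used as a YAP target, did not pass, with a difference of -0.11 (adjusted p = 0.257), and neither did the target and YAP-inhibiting kinase Lats2 at -0.15 (adjusted p = 0.270). Axl and Lats2 were named after their values had been seen.

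Of 7 measured cofactors that bind TEAD or act on the stability or DNA binding of YAP and TAZ, 3 fell and 0 rose in limma. Over all genes tested, 10.1% fell and 7.00% rose, so 0 risen of 7 is close to the share over all genes. In the upward direction 0 of the cofactors had an unadjusted p under 0.05. Vgll3 and Vgll4 encode vestigial-like proteins, which bind TEAD at the surface that YAP and TAZ use. Vgll3 had a log2 intensity of 11.74 and 11.63 in WT and 10.37 and 10.48 in Zip13KO. It fell by 1.26 log2 units (SE 0.07, adjusted p = 1.45e-10), to 41.7% of WT, with the groups far apart. Vgll4, a known repressor of TEAD activity, was at 8.32 and 8.34 in WT and 7.62 and 7.85 in Zip13KO and fell by 0.60 (SE 0.09, adjusted p = 5.38e-05). Csnk1e, a casein kinase that can mark YAP for degradation, fell by 0.36 (SE 0.07, adjusted p = 9.49e-04). The median of the list was -0.0043, since the remaining 4 genes lay between -0.0043 and 0.068.

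The Hippo kinases and their upstream regulators showed no common direction. Of 27 measured genes, 4 rose and 3 fell, where 7.00% and 10.1% of all genes did, so the share that fell was close to that over all genes. The median difference was 0.01. The kinases of the core, Stk4, Lats1 and Lats2, and their adaptors Sav1, Mob1a and Mob1b lay between -0.15 and 0.10, and 0 of these 6 passed in limma or had an unadjusted p under 0.05. They were named for their role after their values had been seen. The largest difference in the list was that of Wwc2, a scaffold of the KIBRA family that promotes LATS activity, which was at 10.64 and 10.53 in WT and 9.80 and 9.93 in Zip13KO and fell by 0.71 log2 units (SE 0.07, adjusted p = 7.88e-07). Wwc1, KIBRA itself, rose by 0.37 (SE 0.08, adjusted p = 0.00410), so these relatives moved apart. Wtip, a LIM protein of the Ajuba family that binds LATS, rose by 0.43 (SE 0.07, adjusted p = 2.91e-04), and the large cadherin Dchs1 rose by 0.35 (SE 0.09, adjusted p = 0.0107). The call of Wwc1 was lost without WT replicate 2 (0.28, adjusted p = 0.0610), and that of Dchs1 without Zip13KO replicate 2 (0.22, adjusted p = 0.154). With all rows fitted and adjusted together, 2 genes of this list passed, Wwc1 and Dchs1 not among them (adjusted p = 0.0811 and 0.134). Lats2 and Ptpn14 stand in this list and in that of the targets.

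Among receptors for CCN1 and CCN2, more fell than rose. Of 12 measured genes, 5 fell and 1 rose, where 10.1% and 7.00% of all genes did, with a median difference of -0.20. The single gene that rose is a share close to that over all genes. Integrin alpha v (Itgav), which pairs with several beta chains to bind CCN proteins, was at 11.06 and 10.97 in WT and 9.94 and 10.17 in Zip13KO and fell by 0.96 log2 units (SE 0.08, adjusted p = 3.56e-08), or by 0.62 as the mean of its rows. Its partner Itgb5 fell by 0.86 (SE 0.08, adjusted p = 2.37e-07), and Lrp1, an endocytic receptor that takes up CCN2, fell by 1.13 (SE 0.08, adjusted p = 1.63e-08). Integrin alpha 6 (Itga6), a receptor of laminin and CCN1, went the other way, from 7.72 and 7.82 in WT to 8.87 and 8.96 in Zip13KO, and rose by 1.15 (SE 0.08, adjusted p = 4.94e-09). The groups lay apart for each of these 4 receptors.

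Genes of the actin-linked SRF pathway, which shares Ccn1, Ccn2 and Ankrd1 among its known targets, fell in the same arrays. Serum response factor is joined by the MRTF coactivators, which enter the nucleus as actin polymerises. Of 14 measured genes, 12 fell and 0 rose in limma, where 10.1% and 7.00% of all genes did, so the 0 risen is close to that share. In this list 0 had an unadjusted p under 0.05 upward, and the median difference was -0.54. Mrtfa fell by 0.56 log2 units (SE 0.07, adjusted p = 1.70e-05), while Srf was at -0.12 (adjusted p = 0.306) and Mrtfb at -0.02 (adjusted p = 0.903). These regulators were named for their role after their values had been seen. Within this list, the contractile genes with the largest differences were Myl9 (-3.99), Acta2 (-2.08), Tagln (-1.49) and Tpm2 (-0.87). Each had the groups apart and a limma adjusted p of 6.13e-08 or less. The actins are close copies of each other, which makes the value of Acta2 uncertain.

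Several markers of contractile cells fell, and others did not pass. Among the 8 markers of myofibroblasts or smooth muscle, 5 were past the threshold downward and 0 upward in limma, where 10.1% and 7.00% of all genes were. Of those that fell, Acta2, Tagln, Myl9 and Cnn1 also stand in the SRF list, so they are not a separate observation. Actg2, which is not in that list, fell by 2.81 log2 units (limma adjusted p = 7.73e-14). Desmin (Des) was at 0.23 (unadjusted p = 0.0101, adjusted p = 0.0571) and Lmod1 at -0.23 (unadjusted p = 0.0168, adjusted p = 0.0851). The summed intensity of the 8 markers was 13908 to 14473 in WT and 3226 to 3234 in Zip13KO. Acta2, Myl9 and Tagln, with the highest mean log2 intensity in WT (12.69, 11.93 and 11.11), weigh most in that sum. The caution on the likeness of the actins applies to Acta2 and Actg2 here too. The smooth muscle myosin Myh11 was at 7.35 to 7.53 on all 4 arrays. The 5 mesothelial markers summed to 620 to 628 in WT and 1794 to 1847 in Zip13KO, with only mesothelin (Msln) past the threshold. Epithelial markers summed to 705 to 754 and 701 to 731, endothelial markers to 417 to 420 and 435 to 449, and immune markers to 470 to 528 and 490 to 525, with Cd68 higher by 0.40 (adjusted p = 0.0302) and Csf1r lower (-0.26, adjusted p = 0.0390). Skeletal muscle markers summed to 482 to 531 and 496 to 528, and adipocyte markers to 336 to 356 and 334 to 342. Of the Schwann cell markers 2 of 4 were measured, summing to 196 to 224 and 232 to 245, with Erbb3 higher. The part of any of these in the differences of the members was not tested.

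**Figure D4:**
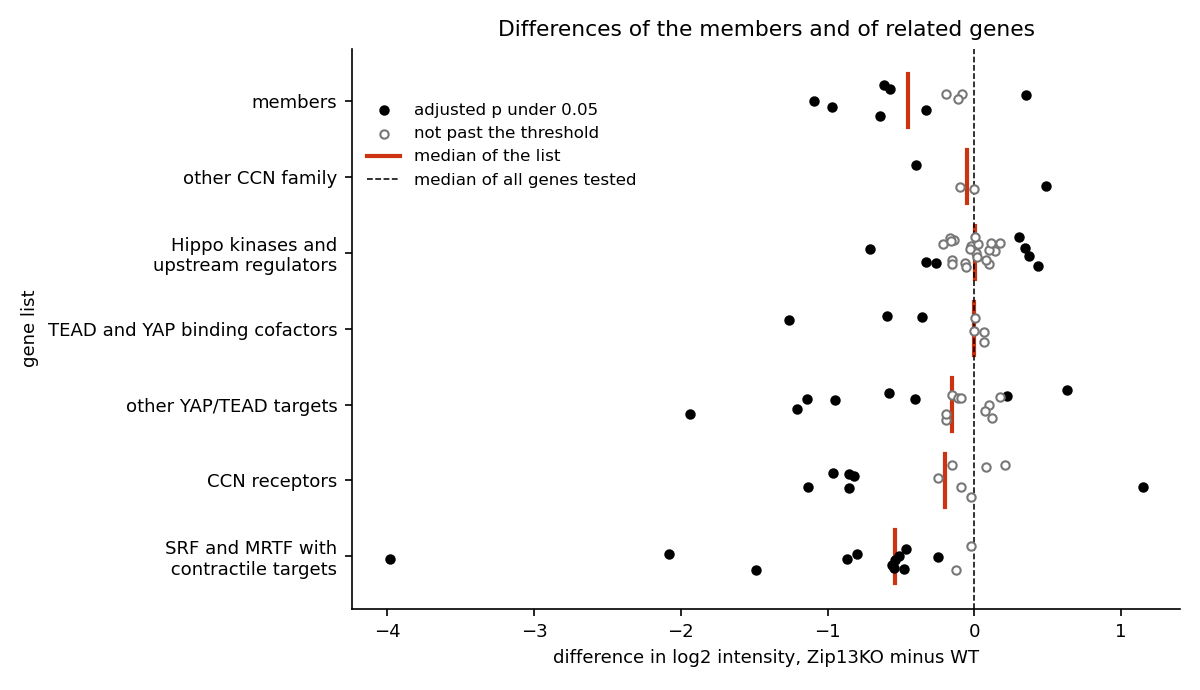
Difference in log2 intensity between Zip13KO and WT (x axis) for each gene of the 10 members and of 6 related lists (y axis); filled points passed the threshold, open points did not, red lines are list medians and the dashed line is the median of all genes tested. The medians of the members (-0.45) and of the SRF list (-0.54) lie furthest to the left, and genes on both sides of 0 passed in the members and in 4 of the 6 lists.

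The genes nearest to Ccn1 and Ccn2 in pattern were found from the distance between log2 values over the 4 arrays, after each gene was centred on its own mean, among 13554 other genes whose mean lay above the median of all rows. For Ccn1 they were Maged2 (distance 0.049), the cholesterol synthesis enzyme Hmgcs1 (0.050) and Itgav (0.053). For Ccn2 they were Crim1 (0.047), Lrp1 (0.067) and the proteoglycan Cspg4 (0.069). With 4 arrays in 2 groups such a distance mostly reflects a similar difference between the groups, which ran from -0.96 to -0.95 for the former and from -1.14 to -1.08 for the latter.

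Apart from the lost call of Tead4 and the gained call of Tead2 given with those genes, no call of a member changed with the settings tried, although Tead2 also passed with crossed replicate numbers (adjusted p = 0.0107). Ccn1, Ccn2, Ankrd1, Amotl2, Wwtr1 and Tead3 passed in the same direction under all 13 alternatives. Across them the difference of Ccn1 ran from -1.06 to -0.89, that of Ccn2 from -1.21 to -0.62, that of Ankrd1 from -0.63 to -0.51 and that of Amotl2 from -0.71 to -0.52. Wwtr1 ran from -0.35 to -0.29 and Tead3 from -0.67 to -0.61. Yap1 and Tead1 passed under none, with differences from -0.11 to -0.03 and from -0.17 to -0.05.

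**Figure D5:**
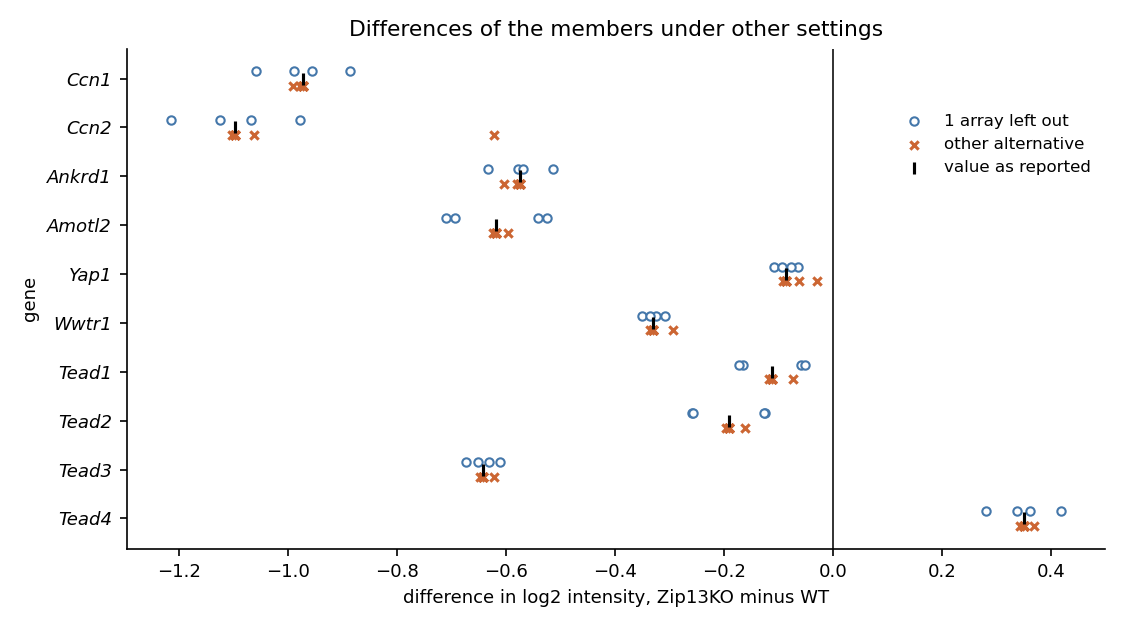
Difference in log2 intensity between Zip13KO and WT (x axis) of each member (y axis) as reported (black bar), with 1 array left out (open circles) and under the other alternatives (crosses). No value crosses 0, and the value that moved most is that of Ccn2 as the mean of its rows (-0.62).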

How the data were processed

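RNA of 4 fibroblast samples was measured on Affymetrix Mouse Gene 2.0 ST arrays. The authors deposited linear intensity, from 21.8 to 10826. The submitters' processing notes name Affymetrix Expression Console and RMA (background correction, normalization between arrays, probe summary), with versions and annotation not given. Since RMA works in log2, the values were probably raised to a linear scale, and log2 was taken again with no pseudocount. Normalization between arrays hides a change shared by most genes.

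Of 41345 rows, 23521 had 1 gene symbol, from the platform annotation; 23328 of these matched RefSeq (GRCm38.p6) by gene ID. The brightest row per gene was kept, with no filter on low values. Groups follow the genotype in the labels. limma 3.58.1 in R 4.3.3 (lmFit, eBayes with trend, two-sided, Benjamini-Hochberg over 22180 genes, threshold 0.05) was tested on simulated data. Degrees of freedom were 2 residual and 15.1 prior. Ratios between genes were tested by exact permutation over arrays. Plots used matplotlib 3.10.9 in Python 3.11.15.

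The text names all members, all CCN genes and, per list, up to 4 genes past the threshold with the largest difference; exceptions are marked. Members and lists were chosen with earlier results of these data known. Stk3, Taok1, Csnk1d, Runx2 and Gadd45a were not analysed here, and 1 planned list is not reported here.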

Additional observations from a re-analysis of the deposited data

How the results depend on the processing

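Of the 10 members, 7 passed as reported and 6 to 8 under the 13 alternatives: a filter on low values, the replicate number as a block, median centring, another quantile normalization, eBayes without trend or with robust variance, averaged rows per gene, a fit over all rows, each array left out, and crossed replicate numbers. When all rows entered the fit and the adjustment, 1806 genes passed in place of 3786 and 2 in place of 7 in the Hippo list, and Tead4 was not past the threshold at 0.35 (adjusted p = 0.0611); the cause was not tested. Leaving out 1 array moved Tead2 between -0.26 and -0.12, and it passed without Zip13KO replicate 2. The same range was -0.00554 to 0.0898 for Slc39a13, whose sign turned without WT replicate 2 (-0.00410) and without Zip13KO replicate 2 (-0.00554), and -0.0396 to 0.0286 for Ccn6, whose sign turned without WT replicate 2.

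The labels share replicate numbers but do not say that these pair the samples. Deviations of same-numbered arrays correlated at -0.158 over genes. With the replicate number as a block, 3364 genes and 7 members passed, and no call of a member changed. Crossed numbers, added after seeing the data, gave 5208 genes and 8 members, with Tead2 past the threshold (-0.19). The number of arrays limits the precision.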
